A study of Sus scrofa with 8 samples.

Results

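A set of 8 genes was followed in the livers of pigs with dietary nonalcoholic steatohepatitis (NASH). *CDKN1A*, *MDM2*, *SESN1*, *GDF15* and *FAS* are targets of the tumor suppressor p53. *KRT8*, *KRT18* and *SQSTM1* encode proteins that gather in injured hepatocytes. All 8 names were found, once each, among the 20430 genes of the expression table. The list was chosen by name and function with earlier results of these same livers in view, among them the low level of *SESN1* in the squalene pools, so the measured levels of the diet comparison count as used in the choice. The differences between the diets are therefore given for these genes as values with their errors, without a test.

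The squalene group received a steatotic diet with 0.5% squalene, and the control group received the steatotic diet alone. All animals were male Large White x Landrace pigs of unstated age. Both groups first ate the steatotic diet for a month and then their own diet for another month, and livers were taken after an overnight fast. The steatotic diet, short of methionine and choline, was rich in fructose, saturated fat, cholesterol and cholate. The liver RNA of the 12 pigs of each diet was combined into 4 pools of 3 animals. The pool is the sample here (n = 4 per diet), so the variation from pig to pig is not seen in these values, and no group without the steatotic diet was analysed.

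p53 is a transcription factor that is kept low by MDM2, the ubiquitin ligase that marks it for degradation, and that accumulates after DNA damage and other stress. It then switches on genes that stop the cell cycle, repair damage or start cell death, and it also raises *MDM2*, which closes a feedback loop. Keratins 8 and 18 pair to form the intermediate filaments of the hepatocyte. In steatohepatitis, ballooned hepatocytes lose this network, and misfolded keratins gather with ubiquitin and the autophagy receptor p62, the product of *SQSTM1*, in Mallory-Denk bodies.

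p53 binds DNA at a response element made of 2 copies of a 10-base motif. The Sscrofa11.1 genome was searched for it within 5000 bases on each side of each gene's annotated start, first with no bases between the copies and counting mismatches over the 20 positions. The core C and G of each copy had to be present, and the element reads the same on both strands. The best matches of the 4 target genes that reached at most 3 mismatches are shown, so that the element can be read in the genes whose levels follow. The capitals mark the 4-base core of each copy, and each sequence is given 5′ to 3′ on the strand of its gene.
*CDKN1A*, chr7:32352251-32352270, plus strand: gaaCATGtcctaaCATGttg
*MDM2*, chr5:33106505-33106524, plus strand: ggtCAAGttcggaCAAGttc
*GDF15*, chr2:59410593-59410612, minus strand: gaaCCTGcttgggCTGGttc
*FAS*, chr14:100927716-100927735, plus strand: ggaCAAGtccttaCATGtca

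Distances run to the middle of the match. The *CDKN1A* match lay 2516 bases before the gene start with 2 mismatches. The *MDM2* match lay 797 bases after the start, inside the gene and outside its annotated exons, with 1 mismatch. The *GDF15* match, with 2 mismatches, and the *FAS* match, with 3, lay in introns 753 and 420 bases after the start. Of the 19565 protein-coding genes on chromosomes, 0.9% had such a match with at most 1 mismatch, 5.87% with at most 2 and 25.1% with at most 3. The best matches of *KRT8* and *SQSTM1* had 4 mismatches, a level that 62.7% of all genes reached, and those of *SESN1* and *KRT18* had 5. With up to 13 bases between the copies, *CDKN1A* had a match without a mismatch inside the gene, as 1.04% of all genes did in their windows. In that wider search all 8 genes had a match with at most 2 mismatches, and so did 62.0% of all genes. A match is a description of these letters and not a measured binding site.

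Levels were compared as FPKM (fragments corrected for gene length and for sequencing depth), as the authors deposited them. The added counts of the authors' comparison table came to 75.9 M fragments in the squalene group and 76.7 M in the control group, 19.0 M and 19.2 M per pool on average, and the depth of a single pool was not given in the files used here. Squalene pool 1 had the lowest mean correlation of log2 levels with the remaining libraries, 0.977, over the genes averaging 0.1 FPKM or more. For the other libraries this mean was 0.981 to 0.984. The interferon-stimulated genes were also highest in squalene pool 1, as given below. Of 10 hepatocyte markers listed, 9 were matched and detected, with a summed level of 52330 to 73790 FPKM in the squalene pools against 47760 to 74110 in the control pools. In such bulk RNA, fewer cells of a type and less RNA per cell cannot be told apart.

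*KRT8* was the most abundant of the 8 genes, at rank 193 of all genes by mean level, and *KRT18* and *SQSTM1* followed at ranks 378 and 464. Their mean levels over the 8 pools were 469.8 ± 92.4, 199 ± 56.8 and 158 ± 15.6 FPKM (SD, n = 8 pools). *CDKN1A* had 38.5 ± 8.75 FPKM, *MDM2* 11.2 ± 2.22, *SESN1* 6.80 ± 1.78, *GDF15* 4.21 ± 1.89 and *FAS* 3.10 ± 0.552 (SD, n = 8 pools). The ranges of neighbors in this order did not overlap between *KRT8* and *KRT18*, *SQSTM1* and *CDKN1A*, or *CDKN1A* and *MDM2*. The ranges of *KRT18* and *SQSTM1*, *MDM2* and *SESN1*, *SESN1* and *GDF15*, and *GDF15* and *FAS* overlapped, although within single pools *MDM2* was above *SESN1* in 8 of 8 pools and each of the other 3 pairs kept its order in 7 of 8.

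**Figure D1:**
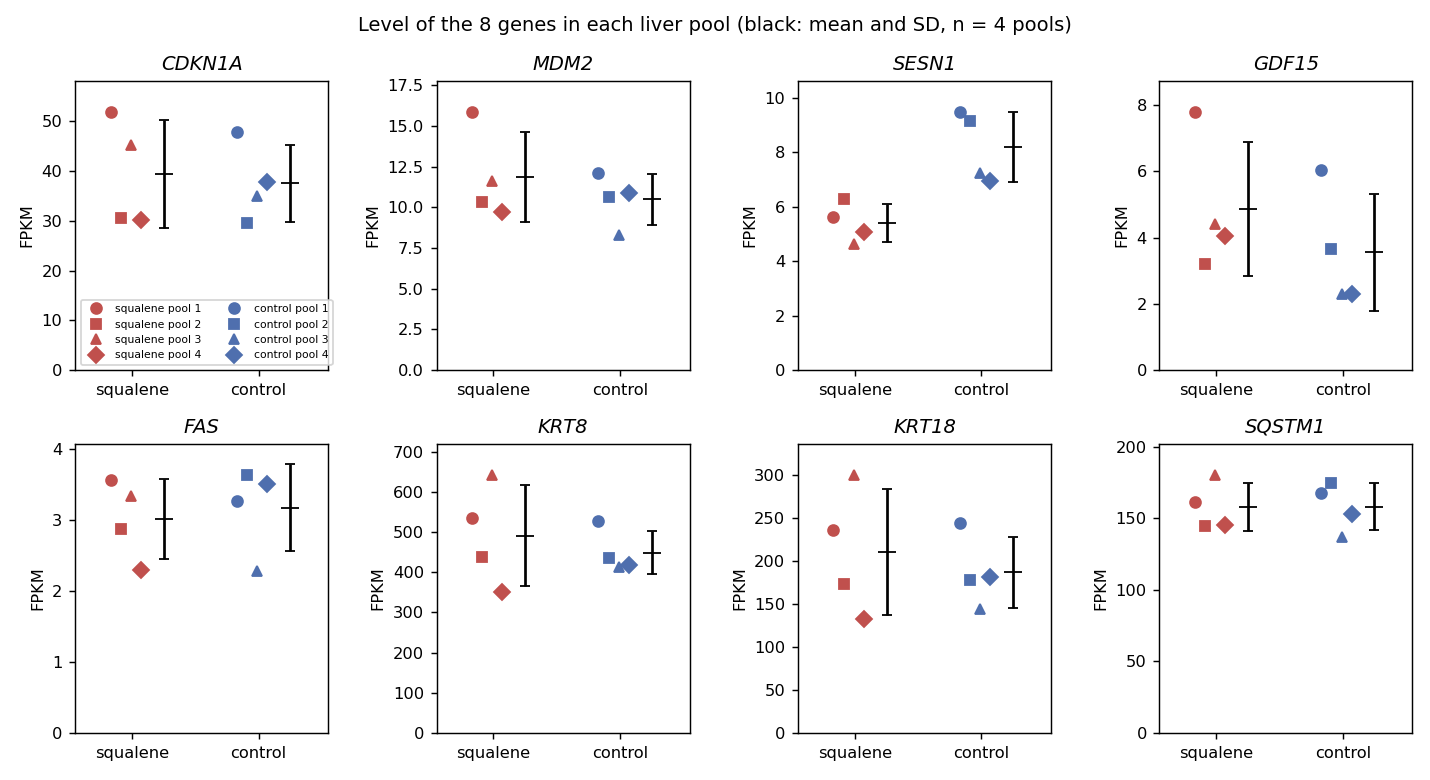
Level of each of the 8 genes in FPKM (vertical axis, from 0) in the 4 squalene pools (red) and the 4 control pools (blue), with the mean and SD of each diet in black. *SESN1* is the only one of the 8 whose diets do not overlap, at 4.65 to 6.27 FPKM in the squalene pools against 6.93 to 9.48 in the control pools.

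*SESN1* encodes sestrin 1, a p53-induced protein that restrains the growth kinase mTORC1 and lowers oxidative stress. It had 5.64, 6.27, 4.65 and 5.07 FPKM in squalene pools 1 to 4, against 9.48, 9.14, 7.23 and 6.93 FPKM in control pools 1 to 4. Every squalene pool was below every control pool, the only such separation among the 8 genes. The means were 5.41 ± 0.704 FPKM in the squalene group and 8.20 ± 1.30 FPKM in the control group (SD, n = 4 each), a ratio of 0.66 and a log2 fold change of −0.59 (standard error 0.14, limma on log2(FPKM + 0.1)). Behind these values were 1161 fragments in the squalene group and 1777 in the control group in the added counts of the authors' table. Over all 14780 genes tested, the squalene pools were all below the control pools in 1.54%. Leaving out any single pool gave a log2 fold change from −0.66 to −0.51. These values are those the list was chosen with, so they are a description.

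The other sestrins did not share this pattern in level. *SESN2*, a relative that also responds to p53 and to amino acid shortage, had 7.46, 7.83, 6.57 and 8.18 FPKM in squalene pools 1 to 4 and 7.31, 4.54, 4.79 and 5.76 in control pools 1 to 4. Its values were higher in 3 of the 4 squalene pools than in any control pool, with a log2 fold change of 0.44 (standard error 0.15), but it did not pass the test over all genes (limma, unadjusted p = 0.018, adjusted p = 0.9997). *SESN3*, which is named here to complete the family, had 1.21 ± 0.326 FPKM in the squalene group and 1.31 ± 0.150 in the control group (SD, n = 4 each), and the log2 fold change was −0.14 (standard error 0.19). A difference between the responses of the sestrins was not tested.

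*CDKN1A* encodes p21, the inhibitor of cyclin-dependent kinases that carries out the cell cycle arrest of p53. It had 51.8, 30.6, 45.3 and 30.1 FPKM in squalene pools 1 to 4, against 47.8, 29.5, 35.0 and 37.7 FPKM in control pools 1 to 4. The diets overlapped throughout, and squalene pools 1 and 3 and control pool 1 were high. The log2 fold change was 0.05 (standard error 0.20), and it turned to −0.09 without squalene pool 1, to −0.02 without squalene pool 3 and to −0.05 without control pool 2.

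*MDM2* had 15.9, 10.3, 11.6 and 9.71 FPKM in the squalene pools and 12.1, 10.6, 8.30 and 10.9 in the control pools. It was highest in squalene pool 1, and the other squalene pools lay within the range of the control pools. Its log2 fold change of 0.16 (standard error 0.17) came to 0.02 without squalene pool 1 and to 0.06 without control pool 3.

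*GDF15*, a secreted stress hormone that lowers appetite through a receptor in the brainstem, varied most of the 8 genes, by 3.40-fold between the lowest and the highest pool. It had 7.79, 3.19, 4.40 and 4.05 FPKM in squalene pools 1 to 4, against 6.03, 3.65, 2.29 and 2.29 FPKM in control pools 1 to 4. Pool 1 of either diet was the highest of its group, and the diets overlapped. The log2 fold change was 0.47 (standard error 0.34), from 506 and 381 added fragments in the squalene and control groups, and it came to 0.22 without squalene pool 1, 0.30 without control pool 3 or 4 and 0.76 without control pool 1.

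*FAS*, the receptor through which lymphocytes can kill hepatocytes, had 3.57, 2.87, 3.34 and 2.30 FPKM in the squalene pools and 3.27, 3.64, 2.28 and 3.51 in the control pools. Squalene pool 4 and control pool 3 were the lowest of their diets, and the diets overlapped. The log2 fold change was −0.07 (standard error 0.18), and it turned to 0.05 without squalene pool 4 and to 0.00 without control pool 2. Lymphocytes express *FAS* as well, and the 8 T and NK cell markers summed to 35.1 to 62.0 FPKM in the squalene pools against 44.9 to 62.1 in the control pools. Their part in the level of *FAS* was not tested.

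The keratin genes varied more among the squalene pools than among the control pools, and this difference in spread was not tested. *KRT8* had 535, 437, 642 and 350.05 FPKM in squalene pools 1 to 4, against 527, 435, 413.5 and 419 FPKM in control pools 1 to 4. Squalene pool 3 was the highest and squalene pool 4 the lowest of all 8 pools, so that the squalene pools enclosed the control pools. *KRT18* had 236, 173, 301 and 133 FPKM in the squalene pools and 244, 178, 145 and 182 in the control pools, with the same highest and lowest pool.

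The coefficient of variation of *KRT8* was 25.7% in the squalene group and 11.8% in the control group, and that of *KRT18* was 34.9% in the squalene group and 22.2% in the control group. The log2 fold changes were 0.10 for *KRT8* and 0.13 for *KRT18*, with standard errors of 0.18 and 0.24. Without squalene pool 3 they turned to −0.04 and −0.06.

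*SQSTM1* was the steadiest gene of the list, with a coefficient of variation of 9.85% over the 8 pools. It had 161, 144, 180.4 and 145 FPKM in squalene pools 1 to 4 and 167, 175, 137 and 153 in control pools 1 to 4. Its means were 158 ± 17.0 FPKM in the squalene group and 158 ± 16.6 FPKM in the control group (SD, n = 4 each), and its log2 fold change of 0.00 (standard error 0.11) changed sign under 6 of 16 alternative settings, TPM and median scaling among them.

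Both keratins are also made by bile duct cells. *KRT7*, a keratin of these cells and not of hepatocytes, had 2.14, 2.23, 0.64 and 3.77 FPKM in the squalene pools and 0.99, 1.68, 0.71 and 1.33 in the control pools. It was lowest in squalene pool 3, where *KRT8* and *KRT18* were highest, and highest in squalene pool 4, where they were lowest. The 8 cholangiocyte markers, none at 0 in every pool, summed to 194 to 291 FPKM in the squalene pools against 244 to 302 in the control pools. This sum was mostly *SPP1*, which injured livers also make outside the bile ducts, and it ran the other way from *KRT7*, with 291 FPKM in squalene pool 3 and 194 in squalene pool 4. The median log2 deviation of the 8 markers was −0.31 in squalene pool 3 and 0.44 in squalene pool 4. The part of bile duct cells in the keratin levels was not tested.

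*KRT8* and *KRT18* are neighbors on chromosome 5 of Sscrofa11.1, on opposite strands. *KRT8* lies at chr5:18172423-18180277 on the minus strand and *KRT18* at chr5:18217686-18221432 on the plus strand, with 37408 bases and 1 annotated locus, *LOC106506682*, between them. *MDM2* is on the same chromosome, at chr5:33105717-33137602, while *CDKN1A* is on chromosome 7, *SESN1* on 1, *GDF15* and *SQSTM1* on 2 and *FAS* on 14.

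The keratin partners moved together over the pools. Their log2 levels had a Pearson r of 0.97 over the 8 pools (exact permutation test, p = 0.000347, adjusted p = 0.00972 over 28 pairs) and a Spearman rho of 0.88 (p = 0.00724, adjusted p = 0.101). Without squalene pools 3 and 4, the 2 farthest from the median of *KRT8*, r was 0.94. It was 0.999 within the 4 squalene pools and 0.92 within the 4 control pools. The ratio of *KRT8* to *KRT18* stayed between 2.13 and 2.86 in all pools, with a mean of 2.39 ± 0.228 in the squalene group and 2.44 ± 0.302 in the control group (SD, n = 4 each). The pair was the only one of the 28 at an adjusted p under 0.05, and it was at 0.0778 without squalene pool 3 and at 0.0611 without squalene pool 4.

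**Figure D2:**
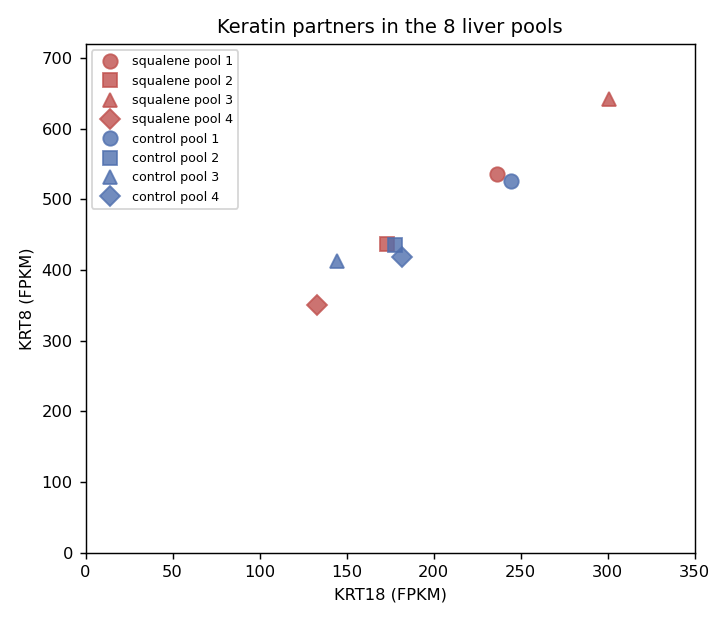
*KRT8* (vertical axis, FPKM) against *KRT18* (horizontal axis, FPKM) in the 4 squalene pools (red) and the 4 control pools (blue), with pool numbers by symbol. The points run along 1 line from squalene pool 4, at 133 and 350.05 FPKM, to squalene pool 3, at 301 and 642 FPKM, with pools of both diets between them.

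The remaining pairs were positive as well, apart from those with *SESN1*. Of the 28 pairs, 23 had a Pearson r above 0, with a median of 0.59, and the 5 below 0 all held *SESN1*, whose r with the other 7 genes ran from −0.14 to 0.24. The share of pairs above 0 among other genes was not computed, so these counts do not set the list apart from genes in general. *CDKN1A* had an r of 0.79 with *KRT8* (exact permutation test, p = 0.0192; rho = 0.67, p = 0.0831) and of 0.81 with *KRT18* (p = 0.018; rho = 0.74, p = 0.0458). Both r stayed at 0.79 and 0.78 without squalene pool 1 and control pool 1, the pools farthest from the median of *CDKN1A*. *SQSTM1* had an r of 0.80 with *KRT18* (exact permutation test, p = 0.0206, with rho = 0.79, p = 0.0279). Its r with *FAS* was 0.78 (exact permutation test, p = 0.0247, with rho = 0.71, p = 0.0576). The first became 0.61 without squalene pool 3 and control pool 1, the pools farthest from the median of *KRT18*. The second became 0.56 without squalene pool 4 and control pool 3, the pools farthest from the median of *FAS*. The adjusted p of these 4 pairs over the 28 was 0.0961 to 0.0987 for r and 0.156 to 0.183 for rho.

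Among the p53 targets, *MDM2* had an r of 0.75 with *CDKN1A* (exact permutation test, p = 0.0175; rho = 0.79, p = 0.0279) and of 0.83 with *GDF15* (p = 0.00898; rho = 0.74, p = 0.0419), with adjusted p over the 28 pairs of 0.0961 for each r and of 0.156 and 0.183 for rho. These 2 relations rested on the pools farthest from the median. Without squalene pool 1 and control pool 1, r of *MDM2* with *CDKN1A* was 0.39, and without squalene pool 1 and control pool 3, r of *MDM2* with *GDF15* was 0.48. *MDM2* with *FAS* had an r of 0.73 (exact permutation test, p = 0.032, adjusted p = 0.112, with rho = 0.67, p = 0.0831, adjusted p = 0.183). It was 0.66 without squalene pool 1 and control pool 3, the pools farthest from the median of *MDM2*. With the keratins, the relation of *MDM2* did not weaken in this way. *MDM2* had an r of 0.71 with *KRT18* (exact permutation test, p = 0.042, adjusted p = 0.118; rho = 0.88, p = 0.00724, adjusted p = 0.101) and of 0.63 with *KRT8* (p = 0.0902, adjusted p = 0.194; rho = 0.81, p = 0.0218, adjusted p = 0.156). Without squalene pool 1 and control pool 3, these r were 0.91 and 0.85. The last of the 10 pairs at an unadjusted p under 0.05 for r was *KRT8* with *SQSTM1*, at 0.73 (exact permutation test, p = 0.0397, adjusted p = 0.118; rho = 0.67, p = 0.0831, adjusted p = 0.183), and it was 0.52 without squalene pools 3 and 4. As deviations from the mean of the own diet, 27 of the 28 pairs were above 0, and *SESN1* had an r of 0.51 with *GDF15* and of 0.31 with *MDM2*.

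**Figure D3:**
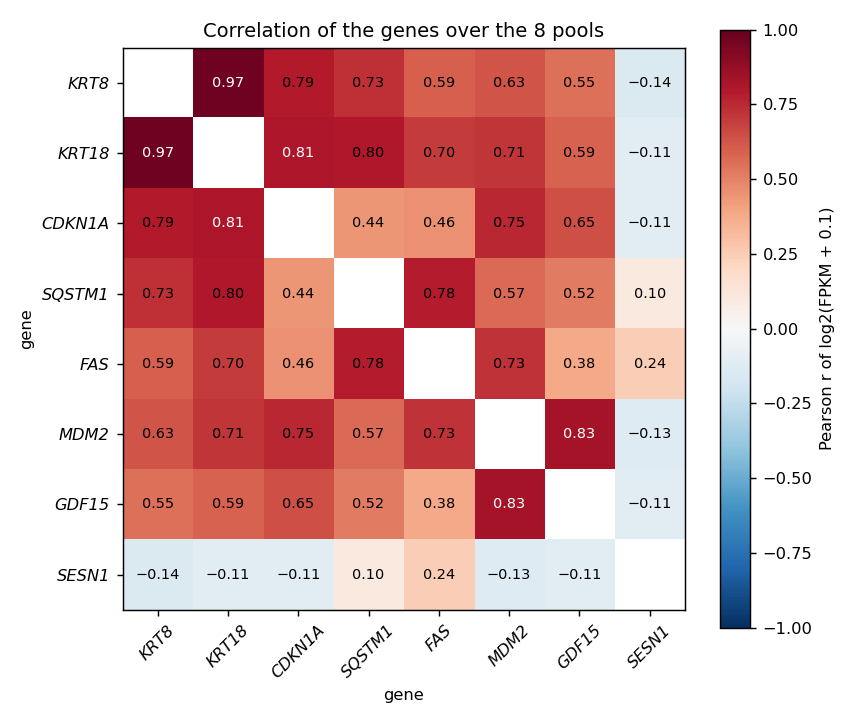
Pearson r of log2(FPKM + 0.1) over the 8 pools for each pair of the 8 genes, from −1 (blue) to 1 (red). The value of 0.97 between *KRT8* and *KRT18* is the highest, and the row of *SESN1* runs from −0.14 to 0.24.

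Read by pool rather than by gene, control pool 1 had 8 of the 8 genes above their mean over the pools, and squalene pools 1 and 3 had 7 each, with *SESN1* as the exception in both. Squalene pool 2 had 0 of the 8 above their mean, squalene pool 4 had 1 (*GDF15*) and control pool 3 had 1 (*SESN1*). The median log2 deviation of the 8 genes was 0.26 in squalene pool 1, 0.19 in squalene pool 3 and −0.35 in squalene pool 4, against 0.27 in control pool 1 and −0.30 in control pool 3. Both diets thus held pools with high and pools with low levels. Other gene lists shared part of this pattern. In control pool 1 the median was 0.10 for 33 other p53 targets, 0.12 for 18 p53 regulators and 0.04 for 18 selective autophagy genes. In control pool 3 these medians were −0.19, −0.20 and −0.12. Some cell type markers went the other way, the 9 hepatocyte markers at −0.04 and 0.08 among them. The share over all genes was not computed.

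The interferon-stimulated genes differed between the same pools in part. The median log2 deviation of 16 such genes was 1.77 in squalene pool 1 and 0.38 in control pool 1, the pools with the highest *CDKN1A*, *MDM2* and *GDF15*, and −0.53 to −0.06 in the other 6 pools. Squalene pool 3, with the highest keratin levels, was at −0.18. *ISG15*, an abundant gene of this list, had 1547 FPKM in squalene pool 1 and 352 in control pool 1. Whether these genes had a part in the levels of the p53 targets was not tested.

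**Figure D4:**
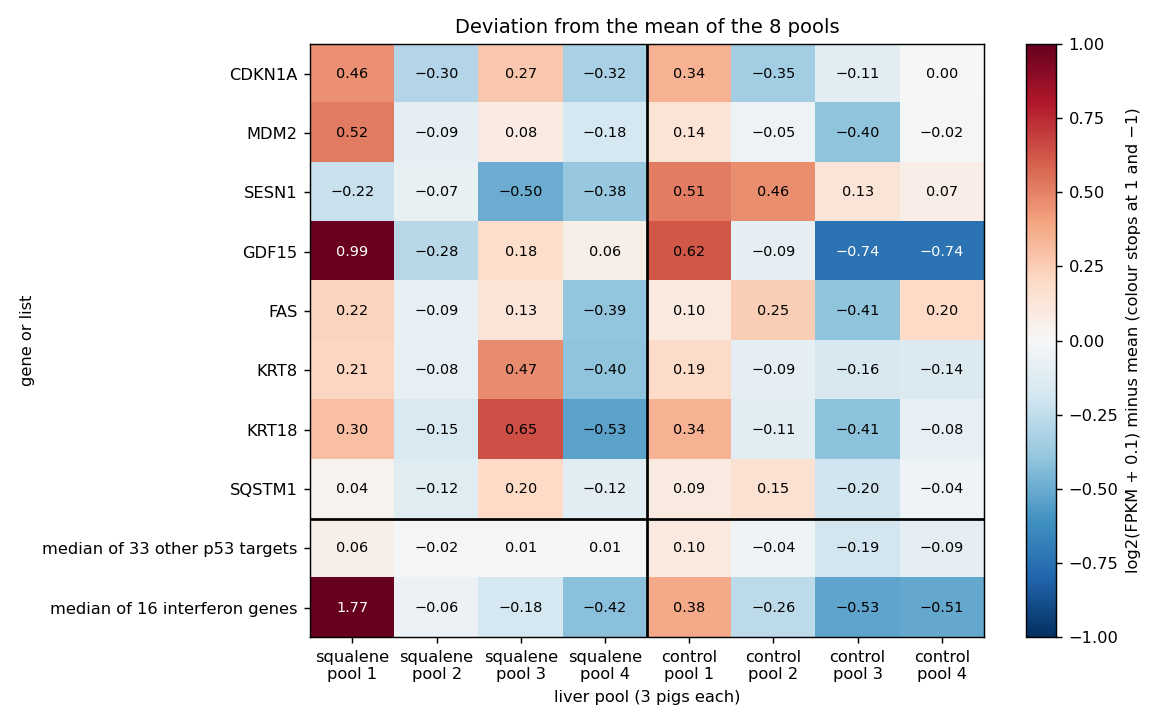
Deviation of each gene from its mean over the 8 pools, on the log2(FPKM + 0.1) scale, in the squalene pools (left) and the control pools (right), with the medians of 33 other p53 targets and of 16 interferon-stimulated genes below the line. Control pool 1 is above 0 for all 8 genes and squalene pool 2 below 0 for all 8, and squalene pool 1 stands at 1.77 for the interferon-stimulated genes.

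The wider p53 program was read from 40 other target genes, of which 35 were in the table and 33 reached a mean of 0.1 FPKM. None of the 33 passed the test between the diets (limma with Benjamini-Hochberg adjustment), where 0.0% of all 14780 genes did, and the smallest adjusted p over all genes was 0.174. At an unadjusted p under 0.05, 2 of the 33 were higher in the squalene group and 0 lower. Over all genes this share was 2.08% higher and 2.28% lower, 4.36% in either direction. Of the fitted log2 fold changes, 22 were above 0 and 11 below, with a median of 0.07 beside −0.01 over all genes. Among all 14780 genes tested, 6964 were above 0 and 7816 below.

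*SESN2*, described above, and *BAX*, which opens the mitochondrial outer membrane in apoptosis, were the 2 genes at an unadjusted p under 0.05. *BAX* had 14.3, 13.2, 13.4 and 10.6 FPKM in the squalene pools and 10.7, 10.9, 9.95 and 10.9 in the control pools, a log2 fold change of 0.27 (standard error 0.11, limma, unadjusted p = 0.0349, adjusted p = 0.9997). Squalene pool 4 was within the control range and the other 3 squalene pools were above it. *PHLDA3*, an inhibitor of the kinase AKT, had 18.8 ± 2.95 FPKM in the squalene group and 14.9 ± 2.97 in the control group (SD, n = 4 each). The diets overlapped in *PHLDA3* (limma, unadjusted p = 0.0582, adjusted p = 0.9997). *FUCA1*, a lysosomal fucosidase, had 28.1 ± 1.32 FPKM in the squalene group and 32.1 ± 2.23 in the control group (SD, n = 4 each), and its squalene pools were all below its control pools. *TRIAP1*, a small inhibitor of apoptosis named here for the same separation, ranged over 24.4 to 25.9 FPKM for the squalene pools and 26.4 to 28.9 for the control pools. These 2 of 33 genes compare with 2.67% of all genes whose diets did not overlap, and neither passed the test (limma, adjusted p = 0.9997).

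**Figure D5:**
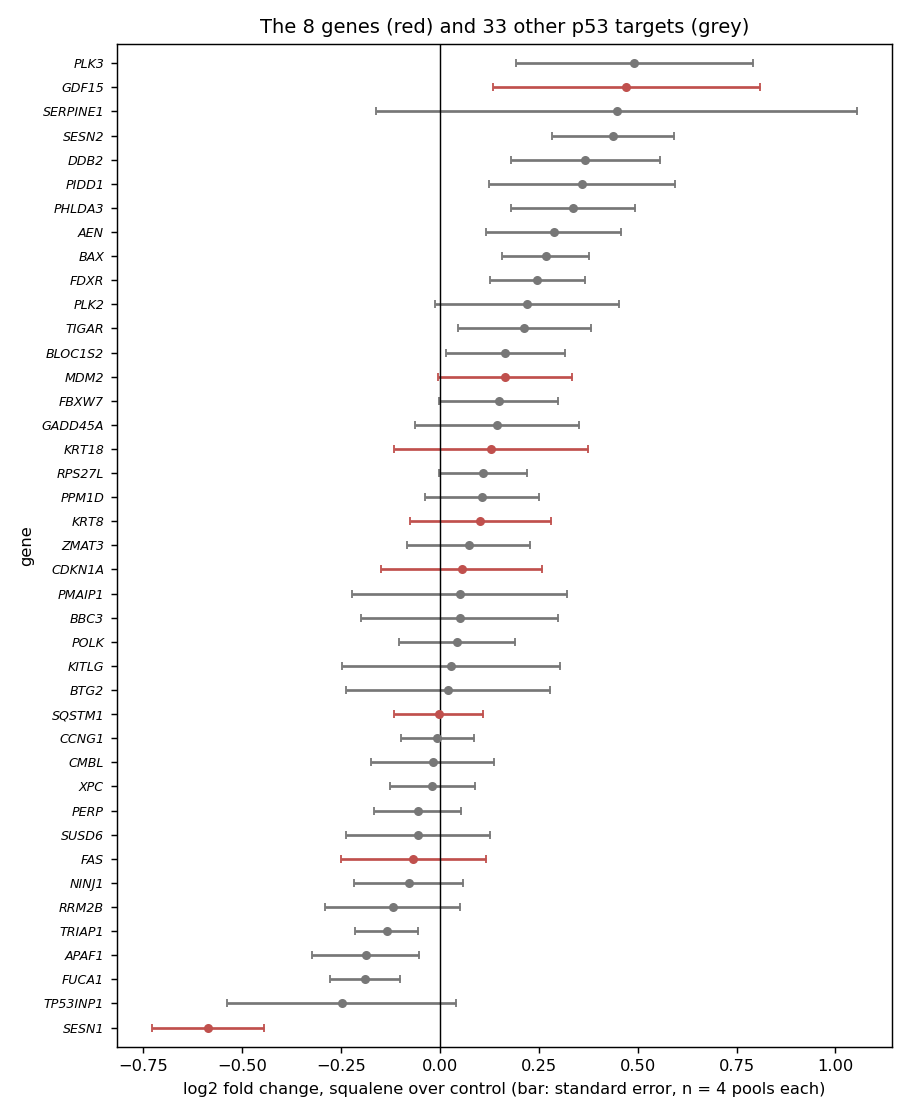
Log2 fold change of the squalene over the control group (horizontal axis, with its standard error as a bar, n = 4 pools each) for the 8 genes (red) and 33 other p53 targets (grey), ordered by value. *SESN1*, at −0.59, is the lowest of the 41 genes, and *PLK3*, at 0.49, and *GDF15*, at 0.47, are the highest.

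The regulators of p53 gave no call either, where 0.0% of all 14780 genes were called. *MDM4*, the partner of *MDM2* that blocks p53 activity, had 1.87 ± 0.221 FPKM in the squalene group and 2.07 ± 0.362 in the control group (SD, n = 4 each). Its values overlapped between the diets. Of 18 regulators tested, 8 had a log2 fold change above 0 and 10 below, with a median of −0.03. *CHEK2*, the checkpoint kinase that phosphorylates p53, and *TP73*, a relative of p53 with at most 0.20 FPKM in any pool, had the smallest p of the list, with log2 fold changes of 0.31 and −0.49 (limma, unadjusted p = 0.0791 and 0.0747).

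The cell cycle partners of p21 included *E2F1*, a transcription factor of genes needed for the S phase. *E2F1* had 1.51, 2.33, 1.78 and 1.5 FPKM in the squalene pools and 1.11, 1.33, 1.32 and 1.09 in the control pools. Its squalene pools were all above its control pools, with a log2 fold change of 0.50 (standard error 0.17, limma, unadjusted p = 0.0129, adjusted p = 0.9997), where 1.13% of all genes were separated in that direction. *CDKN1B*, which encodes the p27 inhibitor related to p21, had 12.3 ± 1.36 and 14.6 ± 1.39 FPKM (SD, n = 4 each, squalene and control), with a log2 fold change of −0.26 (limma, unadjusted p = 0.0462, adjusted p = 0.9997). *CCND3*, a cyclin of the G1 phase, had 54.2, 29.8, 31.6 and 29.7 FPKM in squalene pools 1 to 4 against 21.8 to 33.8 FPKM across the control pools, so that only squalene pool 1 lay above the control range (log2 fold change 0.36, standard error 0.21, limma, unadjusted p = 0.114). *CCND2*, another G1 cyclin, overlapped between the diets as well (log2 fold change 0.62, standard error 0.39, limma, unadjusted p = 0.14). The 14 genes tested had 8 above 0 and 6 below. The summed level of 7 proliferation markers was 34.3 to 53.5 FPKM in the squalene pools against 28.3 to 32.3 in the control pools, without overlap. Singly, 2 of the 7 had all squalene pools above all control pools, and 3 were higher at an unadjusted p under 0.05 (limma), beside 2.08% of all genes. All 7 log2 fold changes were above 0, with a median of 0.43, and none was called (limma, smallest adjusted p = 0.443). *PCNA*, the most abundant, overlapped, at 14.6 to 29.7 FPKM in the squalene pools against 14.0 to 17.5 in the control pools. The part of proliferation in the values of the cell cycle genes was not tested.

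Of 21 listed genes that act with *FAS* in cell death, 20 were tested, and 0 had an unadjusted p under 0.05 (limma), beside 4.36% of all genes. Of their log2 fold changes, 13 were above 0 and 7 below, with a median of 0.06. *FASLG*, the ligand of *FAS*, had 0.55, 0.33, 0.14 and 0.07 FPKM in squalene pools 1 to 4 and 0.73, 0.33, 0.46 and 0.28 in control pools 1 to 4, so the diets overlapped. *BID*, which links death receptors to mitochondria, had 18.2, 9.63, 11.6 and 8.81 FPKM in squalene pools 1 to 4 against 8.42 to 9.44 FPKM across the control pools. *BAK1*, a pore-forming relative of *BAX*, had 12.5, 8.76, 8.20 and 5.86 FPKM in squalene pools 1 to 4 against 5.54 to 7.91 FPKM across the control pools. Both were highest in squalene pool 1, and both overlapped between the diets. *CYCS*, cytochrome c, had 56.2 ± 2.26 and 47.7 ± 7.12 FPKM (SD, n = 4 each, squalene and control). Its pools overlapped between the diets as well (limma, unadjusted p = 0.0559, adjusted p = 0.9997).

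Among 14 tested genes of the keratin network and Mallory-Denk bodies, 6 had a log2 fold change above 0 and 8 below, with a median of −0.04. At an unadjusted p under 0.05 (limma) there were 0, beside 4.36% of all genes. *UBB*, a polyubiquitin gene, had 1757 ± 329 and 1576 ± 144 FPKM, *DSP*, which anchors keratins at cell junctions, 8.39 ± 0.750 and 9.22 ± 1.29, and *NFE2L2*, the transcription factor that p62 releases from KEAP1, 18.3 ± 1.122 and 19.8 ± 0.678 FPKM (SD, n = 4 each, squalene and control).

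Of the genes that work with *SQSTM1* in selective autophagy, all 18 listed were tested, and 9 were above 0 and 9 below. Their log2 fold changes ran from −0.13 to 0.13, with 0 at an unadjusted p under 0.05 (limma), beside 4.36% of all genes. *ATG7*, the enzyme that starts the conjugation of LC3, had 4.38 ± 0.486 and 3.99 ± 0.180 FPKM, *MAP1LC3A*, an LC3 protein, 25.7 ± 4.55 and 27.7 ± 2.74, and *OPTN*, another cargo receptor, 59.3 ± 10.7 and 55.0 ± 7.93 FPKM (SD, n = 4 each, squalene and control). Of 16 partners of the sestrins and of *GDF15*, 7 were above 0 and 9 below, again with 0 at an unadjusted p under 0.05 (limma). *CASTOR1*, an arginine sensor upstream of mTORC1, had 2.19 ± 0.194 and 2.65 ± 0.437 FPKM (SD, n = 4 each, squalene and control), and *RET*, the signaling subunit of the GDF15 receptor, had at most 0.31 FPKM in any pool.

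The genes closest in pattern to each of the 8 were sought among 10289 named genes averaging 1 FPKM or more, by Pearson r of log2(FPKM + 0.1) over the 8 pools, which share their libraries. For *KRT8* the closest was *KRT18*, followed by *CFL1* (0.97 each), and for *KRT18* it was *YES1* (0.98), with *KRT8* in second place. For *CDKN1A* the closest were *SLC2A3* (0.96) and *CKB* (0.95), for *MDM2* *NBN* and *SAE1* (0.98 each), for *GDF15* *GMFB* (0.98) and *UBE2V2* (0.97), for *FAS* *PPA2* and *STK32B* (0.97 each) and for *SQSTM1* *LRBA* and *IDE* (0.97 each). *SESN1* was followed most closely by *NUP214* (0.96) and *MMS19* (0.95). From 12 genes, for *SESN1*, to 128, for *GDF15*, had an r of at least 0.9 with 1 of the 8.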

How the data were processed

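Polyadenylated liver RNA was sequenced by BGI on DNBSEQ machines and aligned by the authors to Sscrofa11.1 (HISAT2). For details of the workflow the study refers to an earlier publication that was not used here, so the program version and the step from alignments to values are not known here. The deposited values are FPKM of every gene in each pool, to 2 decimals, and estimated counts of each diet added over its 4 pools. Their log2 ratios, p-values and q-values were not used. Depth per pool was not given, so no count model and no counting interval was used. How reads shared by similar genes were assigned, and whether strand was used, is likewise not known here.

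log2(FPKM + 0.1) was fitted with limma 3.58.1 in R 4.3.3 (lmFit, eBayes with a trend) for the 14780 genes averaging 0.1 FPKM or more, with Benjamini-Hochberg adjustment over all of them and a threshold of 0.05. This scale understates changes of low genes. The fit was tested on simulated data. The 28 correlations used two-sided exact permutation of the 8 pools, with adjustment over the pairs, in Python 3.11.15 with numpy 2.4.6 and pandas 2.3.3. Loci and motif matches come from the RefSeq annotation and sequence of Sscrofa11.1. The members and lists were chosen with earlier results of these data known. The rule for named genes took the 8 members, *MDM4*, a further gene that is not reported here, the 4 genes of smallest p in each list, the 2 genes closest in pattern to each member, and up to 3 abundant genes of each marker list, and not all of these are printed. *SESN3*, *TRIAP1* and *PLK3* were named after their values were seen. Alternatives covered the pseudocount, the filter on low values, the scaling, the variance trend, a replicate block and each pool left out. Splicing tables were not used.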

Additional observations from a re-analysis of the deposited data

How the results depend on the processing

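No gene was called between the diets (0 with limma, 645 at an unadjusted p under 0.05). The count became 1 without the variance trend and ran from 0 to 1 with single pools left out, 1 being reached without control pool 2, and 0 genes of the fixed lists were called in all 17 alternatives. With the replicate block, 0 genes were called and 747 had an unadjusted p under 0.05. With this block the standard errors of *FAS* and *SQSTM1* rose and those of the other members fell, that of *GDF15* from 0.34 to 0.19. Whether the pool numbers pair the diets is not known. Same-numbered pools correlated by −0.0685 to 0.0914 in their deviations and differently numbered pools by −0.0805 to 0.101, which cannot settle it. The number of member pairs at an adjusted p under 0.05, 1 in all other settings, ran from 0 (without squalene pool 3 or 4) to 2 (without control pool 2, 3 or 4). The r of *KRT8* with *KRT18* ran from 0.96 to 0.99. The median log2 fold change of the 8 genes, 0.08, ran from −0.05 (without squalene pool 3) to 0.21, and that of the other p53 targets, 0.07, from 0.04 to 0.13. *SESN1*, *GDF15* and *MDM2* kept their sign in all 16 alternatives, while *CDKN1A* turned in 3, *FAS* in 2, *KRT8* and *KRT18* in 1 each and *SQSTM1* in 6. With 4 pools per diet and 381 to 1777 added fragments per diet behind *GDF15*, *FAS* and *SESN1*, the precision of these genes is limited.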

Other observations

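Single nucleotide sites with a base letter per pool were also listed for the 8 genes. *KRT8* held 16 sites, 5 of them in coding exons, *FAS* 15, *KRT18* 14, *SESN1* 13, *SQSTM1* 11 and *MDM2* 8, while *CDKN1A* and *GDF15* held 2 each. *SQSTM1*, with reads at all 11 sites in every pool, had a letter other than the reference at 3, 5, 0 and 2 sites in squalene pools 1 to 4 and at 0, 7, 0 and 6 sites in control pools 1 to 4. Both diets thus held pools at 0 and pools with 5 or more. In *KRT8*, 3 sites differed from the reference in all 8 pools, and in *KRT18* 2 sites did. The other genes had sites without reads in some pools, and the authors' color marks of SNP quality were not used here. A pool combines 3 animals, so these counts give no allele frequencies, and no test was made of them.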
